A study of Mus musculus with 9 samples.

Results

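The DNA replication and mitosis genes of liver cancer cells were described here, in a control line and in clones in which the adhesion molecule gene Vcam1 had been edited. The 50 genes were chosen by symbol from a list of the machinery of DNA synthesis and cell division. All 50 were found among the 55276 symbols of the count table, and all 50 passed the filter on low counts that kept 17672 genes for testing. They were divided by role into 26 replication genes and 24 mitosis genes.

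Transcripts were measured by RNA sequencing of cultured mouse cells in 9 libraries, 3 per group. All cells came from a liver cancer, an intrahepatic cholangiocarcinoma, that arose in mice carrying Prom1CreERT2, Rosa-ZsGreen and floxed alleles. In these animals a Cre recombinase that is switched on by tamoxifen is driven by the Prom1 promoter, and it deletes the floxed alleles and turns on a green reporter, so that the control cells carry these changes too. The groups were the control cells, labelled WT, and the edited cells, labelled KO1 and KO2, each of which is 1 single-cell clone made with CRISPR/Cas9 and a guide to exon 2 of Vcam1. All were grown in Dulbecco's medium with 10% fetal bovine serum. The libraries of a group came from cells at different passages, but the labels do not say which library belongs to which passage. The p-values of a single clone therefore measure the spread between these cultures of a line or clone. With the clones together, the 6 libraries of KO1 and KO2 form 1 group, so the spread also holds the difference between the clones. Effects of the edit, of choosing a clone and of passage cannot be told apart here.

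The libraries held 53415907 to 125223073 counts. Vcam1 itself was present at 248, 220.4 and 329 CPM (counts scaled to a library size of 1000000) in the control libraries, 98.8, 92.4 and 128 CPM in KO1 and 119, 99.4 and 82.9 CPM in KO2, a fall in both clones together of 1.36 on the log2 scale (edgeR quasi-likelihood test, Benjamini-Hochberg adjusted p = 0.00021). The control cells expressed the epithelial keratin Krt8 at 5199 to 5568 CPM and the biliary keratin Krt19 at 2128 to 2405 CPM. The clones held at most 0.50 and 0.23 CPM of them. The clones kept the biliary factor Sox9 at 107 CPM or more in every library. The 10 biliary and epithelial markers examined summed to 13564 to 15244 CPM in the control and to 7632 to 11079 CPM in the clones. Their median log2 CPM was 7.78 to 8.21 in the control libraries and −2.26 to −0.70 in the clone libraries. Of the 9 that were tested with the clones together, 6 fell and 1 rose, where 21.2% and 21.7% of all genes did. The 10 fibroblast markers examined summed to 427 to 829 CPM in the control and to 6759 to 15961 CPM in the clones. Of the 8 that were tested with the clones together, 7 rose and 0 fell, against the same shares of all genes. Of these markers Lum was at 0 in the control, and in the clones it stayed at 2.35 CPM or less and Thy1 at 0.29 CPM or less. The hepatocyte factor Hnf4a was at 207 to 264 CPM in the control and at 0 in the clones. Prom1 was at most 0.24 CPM in every library, and the 8 haematopoietic and 6 endothelial markers summed to at most 20.9 and 2.44 CPM. The part of these differences in the values below was not tested.

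Cells copy their DNA in S phase and divide in mitosis. Before S phase, Cdc6, Cdt1 and the Mcm proteins load the replicative helicase on DNA, a step that geminin (Gmnn) restrains, and the E2F factors transcribe the genes for this step and for nucleotide supply. Later, the mitotic kinases, the spindle checkpoint and the motors that move chromosomes are made, and their genes are controlled by the DREAM and MuvB complexes together with Mybl2 and Foxm1. These genes are used in proliferation signatures of tumours, and Mki67 encodes the antigen that pathologists stain to count cycling cells. In RNA from whole cultures, fewer cycling cells and less transcript in each cycling cell cannot be told apart.

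The 2 parts of the machinery differed in the sequences at their start sites. RefSeq promoter windows, 250 bases before to 50 bases after a start site in GRCm38.p6, were at hand for 38 of the 50 genes, 43 windows in all. Both strands were searched for the E2F words TTTCCCGC, TTTCGCGC, TTTGCCGC and TTTGGCGC, for the cell cycle homology region (CHR) words TTTGAA and TTCGAA that MuvB complexes read, and for CCAAT. An E2F word was present in 40% of the windows of replication genes, in 5.56% of those of mitosis genes and in 2.26% of all 32851 windows. A CHR word was present in 28%, 72.2% and 19.2% of them. A CHR word together with CCAAT was found in 24% of replication windows, 72.2% of mitosis windows and 7.52% of all windows, and CCAAT alone or with others in 60%, 83.3% and 37.4%. Matches of different motifs overlapped once in the 43 windows. Windows of Birc5, Ccne1, E2f1, Mad2l1, Mybl2 and Tyms held none of these letters. In all, 5 promoters are printed here, 2 of replication genes and 3 of mitosis genes, because they show both kinds side by side. Each reads 5′ to 3′ in the direction of the gene, and capitals mark every match of the words above.
Mcm6, chr1:128359656-128359955, minus strand: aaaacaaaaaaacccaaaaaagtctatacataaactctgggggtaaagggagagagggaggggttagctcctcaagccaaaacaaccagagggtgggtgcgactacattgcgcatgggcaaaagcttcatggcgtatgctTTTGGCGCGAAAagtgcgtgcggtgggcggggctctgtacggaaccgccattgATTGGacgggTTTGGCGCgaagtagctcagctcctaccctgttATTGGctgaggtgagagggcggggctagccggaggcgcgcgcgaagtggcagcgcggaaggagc
Pola1, chrX:93632106-93632405, minus strand: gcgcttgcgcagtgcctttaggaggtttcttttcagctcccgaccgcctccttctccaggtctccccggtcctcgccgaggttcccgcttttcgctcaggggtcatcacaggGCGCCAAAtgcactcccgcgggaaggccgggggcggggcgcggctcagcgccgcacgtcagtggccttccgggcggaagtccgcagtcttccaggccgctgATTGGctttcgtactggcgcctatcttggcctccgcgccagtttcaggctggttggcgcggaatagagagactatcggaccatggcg
Cdk1, chr10:69352863-69353162, minus strand: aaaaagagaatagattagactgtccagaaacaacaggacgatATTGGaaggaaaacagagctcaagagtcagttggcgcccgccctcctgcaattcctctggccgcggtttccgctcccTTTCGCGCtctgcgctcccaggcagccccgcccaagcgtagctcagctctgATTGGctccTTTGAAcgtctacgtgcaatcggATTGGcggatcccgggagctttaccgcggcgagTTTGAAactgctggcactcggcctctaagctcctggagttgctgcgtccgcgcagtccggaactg
Plk1, chr7:122159185-122159484, plus strand: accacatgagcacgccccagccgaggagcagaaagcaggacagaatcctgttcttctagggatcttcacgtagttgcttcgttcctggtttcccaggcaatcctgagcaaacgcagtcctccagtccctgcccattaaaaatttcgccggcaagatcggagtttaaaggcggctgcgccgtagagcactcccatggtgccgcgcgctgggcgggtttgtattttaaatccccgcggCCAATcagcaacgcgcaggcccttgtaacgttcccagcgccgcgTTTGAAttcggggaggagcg
Mki67, chr7:135716330-135716629, minus strand: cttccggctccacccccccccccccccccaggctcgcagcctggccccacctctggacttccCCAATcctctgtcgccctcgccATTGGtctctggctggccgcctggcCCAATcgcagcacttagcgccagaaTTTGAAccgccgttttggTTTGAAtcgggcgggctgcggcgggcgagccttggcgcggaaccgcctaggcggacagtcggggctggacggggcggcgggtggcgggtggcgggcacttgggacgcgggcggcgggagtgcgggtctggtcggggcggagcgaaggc
Mcm6 held 3 E2F matches and no CHR word, and Pola1 held 1 E2F match and no CHR word. Plk1 and Mki67 held CHR words and CCAAT without an E2F word, while Cdk1 held all 3 kinds. A list of 117 other replication and mitosis genes was chosen with earlier results of these data known. Among them an E2F word was found in 27.1% of the replication windows and 12.3% of the mitosis windows. A CHR word was found in 12.5% and 69.2% of these windows. Matches of letters are a description of these windows and not evidence of binding.

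The first comparison was between single libraries of the same group. The third KO1 library stood far below the others in nearly the whole machinery. Mki67 was present at 216 and 238 CPM in the first and second KO1 libraries and at 27.6 CPM in the third. Against the mean of the other 2 libraries of its group on the log2 CPM scale, the third KO1 library was at least 2-fold lower for 47 of the 50 genes. Of all 17672 tested genes, 6.84% were that much lower in it. It held 23 of 26 replication genes and all 24 mitosis genes at this level, and it was the lowest of all 9 libraries for 47 genes.

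The deficit was larger for mitosis genes than for replication genes. The median difference was −2.02 on the log2 scale for replication genes and −2.90 for mitosis genes. It ranged from −3.23 to −2.27 among the 7 genes of mitotic entry and from −3.05 to −2.81 among the 8 genes of the spindle and chromosomes. Licensing and helicase genes lay between −2.88 and −1.30, and nucleotide supply and fork genes between −2.79 and −0.91. The 3 genes that did not reach a 2-fold difference were Pcna, the clamp that holds polymerases on DNA, at −0.94, Rfc3, a subunit of the loader of that clamp, at −0.91, and the transcription factor E2f1 at −0.60. The 50 genes together took 0.0715% of the counts of this library, against 0.332% and 0.396% in the other KO1 libraries, 0.227% to 0.409% in the control and 0.369% to 0.705% in KO2.

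Other values moved with this library. The antiproliferative gene Btg2, which was picked after its values had been seen, was at 618 CPM in it, against 126 and 160.4 CPM in the other KO1 libraries. It had the highest difference of the 20 genes examined that hold the cycle back, 2.12 on the log2 scale, whereas their median was −0.15 and their lowest −1.68. Mitochondrial transcripts made up 2.12% of its counts, the highest share of the 9 libraries, where the lowest was 0.397%. Cdkn1a, which encodes the inhibitor p21, was at 79.9 CPM in it and 116 and 121 CPM in the others of the clone. Its summed fibroblast markers were the highest of the 9, and its depth, 63662354 counts, was near that of the first KO1 library, 64651901. Their part in the low level of the cycle genes was not tested.

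**Figure D1:**
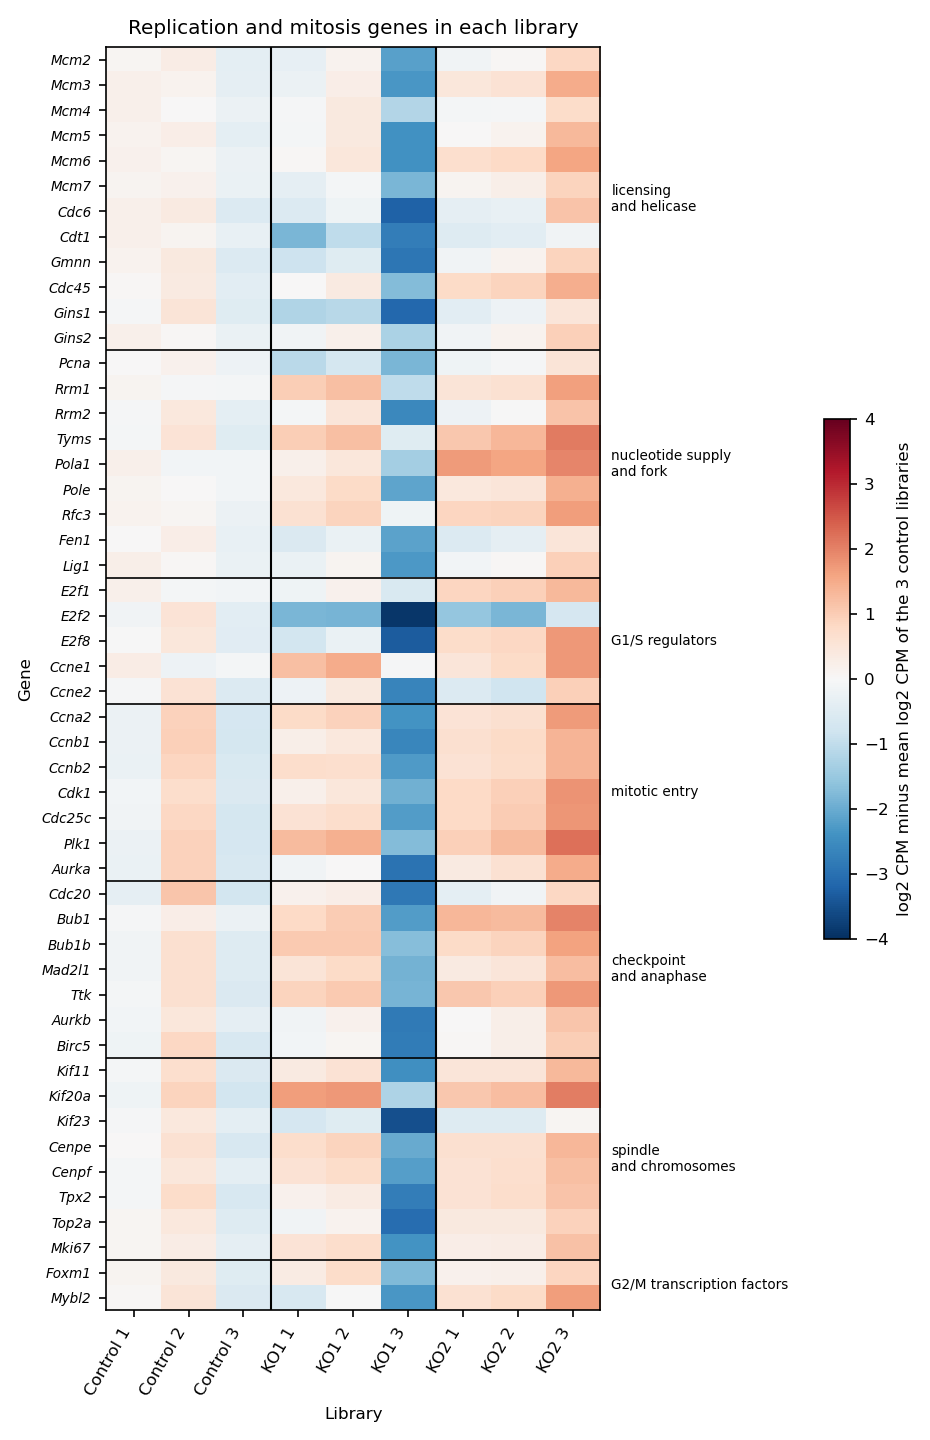
Each cell is the log2 CPM of a gene in a library minus the mean of the 3 control libraries, for the 50 genes in rows ordered by role and the 9 libraries in columns. The third KO1 library is low for nearly all genes, the third KO2 library is high, and the second control library is high in the mitotic blocks.

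Libraries of the other groups differed less, and in different parts of the machinery. In the second control library 12 mitosis genes and 0 replication genes were at least 2-fold above the other control libraries, where 3.84% of all tested genes were. Cdc20, the activator of the anaphase-promoting complex, led with a difference of 1.65, followed by cyclin B1 (Ccnb1) at 1.41 and the kinase Plk1 at 1.39. The medians in this library were 1.0 for mitosis genes and 0.24 for replication genes. In the third control library 6 mitosis genes and 0 replication genes were at least 2-fold lower, and 3.54% of all genes were. Thus the control libraries were spread in mitosis genes more than in replication genes.

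In the third KO2 library both parts were high. Here 7 replication genes and 5 mitosis genes were at least 2-fold above the other KO2 libraries, against 3.63% of all genes. The medians were 0.91 for replication genes and 0.80 for mitosis genes. Ccne2, a cyclin that drives entry into S phase, differed by 1.64 and the licensing factor Cdc6 by 1.48. This library was the highest of the 9 for 45 genes, and the exceptions were Cdt1, Gins1, E2f2, Cdc20 and Kif23, which were highest in a control library.

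**Figure D2:**
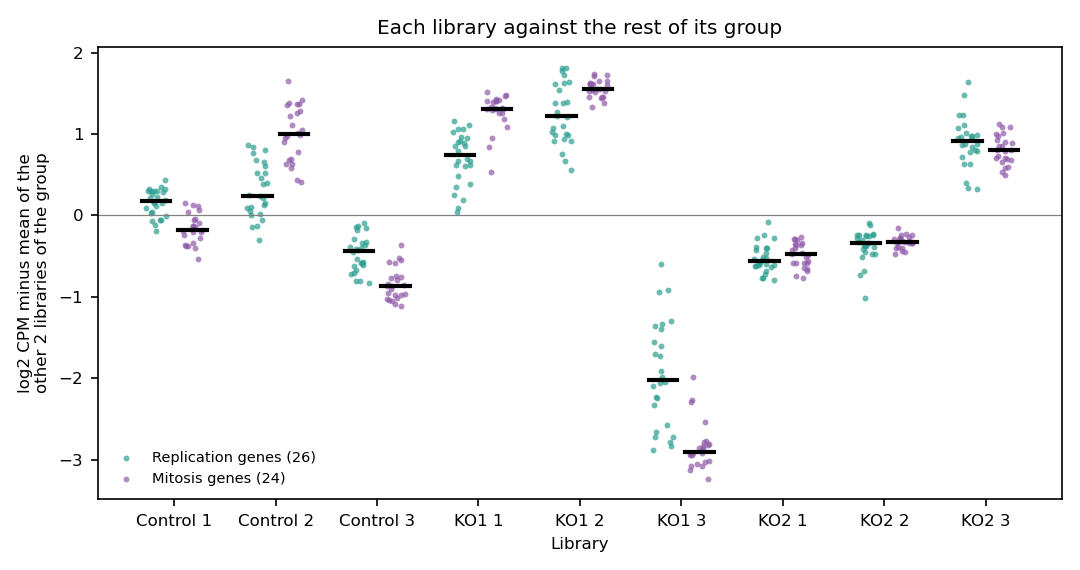
Each point is 1 gene in 1 library, as its log2 CPM minus the mean of the other 2 libraries of the group, with replication genes in green and mitosis genes in purple and a bar at the median. The second control library has medians of 0.24 and 1.0, the third KO1 library −2.02 and −2.90, and the third KO2 library 0.91 and 0.80. A low or high library also shifts the values of its 2 partners the other way, as in KO1.

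Genes with the printed motifs were set side by side in these libraries. The 7 genes with an E2F word and no CHR word had a median of 0.15 in the second control library, and the 16 with a CHR word and no E2F word had 0.68. In the third KO1 library the medians were −2.33 and −2.90, and in the third KO2 library 0.97 and 0.80. The ranges overlapped in each library, so the motif classes were not separate groups.

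The second comparison was between the edited cells and the control. With both clones together, E2f2 was the only gene of the 50 that passed the test, and it fell. In all genes 21.7% rose and 21.2% fell in this comparison, so that 0 higher and 1 lower of 50 was below the background. At an unadjusted p under 0.05, 3 were higher and 1 was lower. The median log2 fold change was 0.37 for the 50 genes and 0.07 for all genes. The median of the 50 was 0.22 with the average of the contrasts of the clones and 0.071 with limma-voom. Mki67 differed by 0.39 ± 0.56 (standard error of the log2 fold change) with an adjusted p of 0.61.

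The number of genes that rose moved with the low library. Without the third KO1 library, 12 genes rose and 1 fell, where 22.4% of all genes rose and 22.3% fell. The 12 were Rrm1, Tyms, Pola1, Pole, Rfc3, Ccne1, Plk1, Bub1, Bub1b, Ttk, Kif20a and Cenpf, with log2 fold changes of 0.74 to 1.44. With that library kept, 9 genes rose with library weights in limma-voom, 4 with the average of the contrasts of the clones and 3 with DESeq2. The 1 lower gene remained a count of 1 without the low library and became 0 without the first or second control library.

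Against the control, KO1 had 0 genes higher and 4 lower, and KO2 had 4 higher and 0 lower. In all genes 29.9% rose and 30.0% fell in KO1, and 25.3% rose and 26.1% fell in KO2. In this fit, where all 9 libraries share their estimate of the spread, the counts of these genes were below the background in both clones. At an unadjusted p under 0.05, KO1 had 1 higher and 4 lower, and KO2 had 7 higher and 1 lower. The medians were −0.26 in KO1 and 0.73 in KO2, with all genes at 0.02 and 0.00. Without the third KO1 library, 7 genes were higher and 4 lower in KO1 (28.1% and 28.7% of all genes), and 21 were higher and 1 lower in KO2 (27.4% and 28.1% of all genes). Fitted on the 6 KO2 and control libraries alone, 20 genes were higher in KO2, against 26.5% of all genes. The 2 comparisons share their 3 control libraries.

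**Figure D3:**
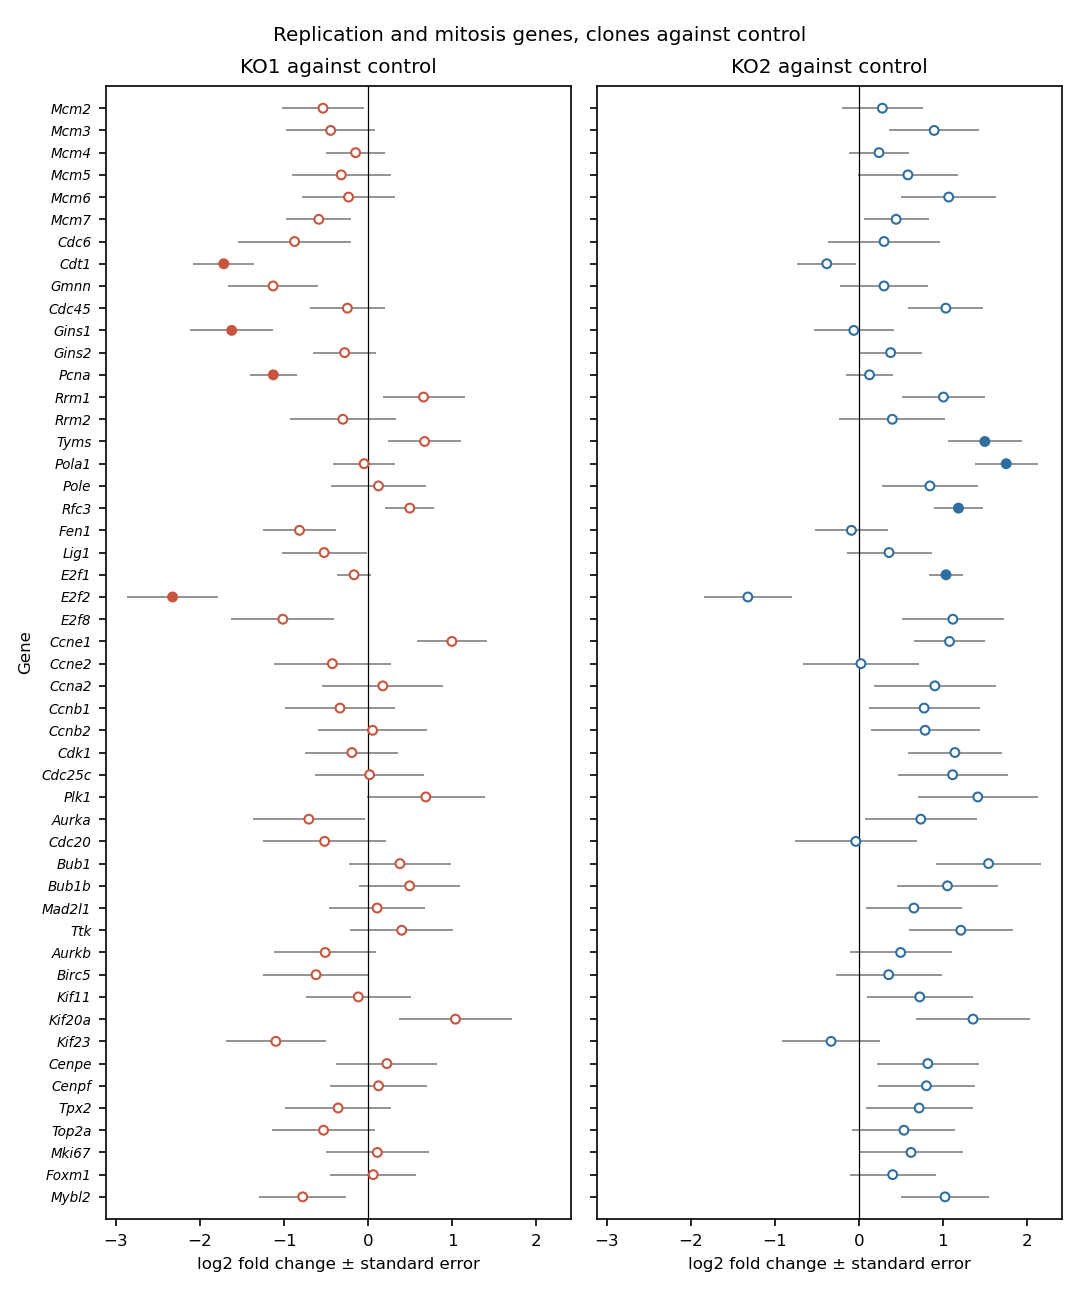
Log2 fold changes of the 50 genes in KO1 and KO2 against the control, with bars for the standard error and filled points for genes with an adjusted p under 0.05. The 4 filled points of KO1 are left of 0 and the 4 of KO2 right of 0.

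Among the 12 licensing and helicase genes, Cdt1 and Gins1 fell in KO1. Cdt1 (chr8:122568015-122573554, plus strand, GENCODE vM21 on GRCm38), which loads the helicase, was at 77.9, 72.9 and 55.1 CPM in the control, 19.3, 33.3 and 9.91 CPM in KO1 and 47.0, 50.2 and 61.0 CPM in KO2. All KO1 libraries lay below all others, and KO2 overlapped with the control. Its log2 fold change was −1.72 ± 0.36 in KO1 (edgeR adjusted p = 0.0026) and −0.38 ± 0.35 in KO2 (adjusted p = 0.40). Gins1, a subunit of the GINS complex of the active helicase, was at 16.7, 24.5 and 12.3 CPM in the control, 7.38, 8.02 and 1.93 CPM in KO1 and 12.8, 14.8 and 23.8 CPM in KO2. Again KO1 lay below the others without overlap, and the fold change was −1.62 ± 0.49 on the log2 scale (adjusted p = 0.017).

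The Mcm genes encode the helicase ring, and none of the 6 passed the test in either clone. Mcm7 was at 179.9, 188 and 139 CPM in the control, 132, 158 and 47.5 CPM in KO1 and 179.6, 198 and 311 CPM in KO2. Mcm6 was at 119, 109.9 and 88.9 CPM in the control, 107, 143 and 19.6 CPM in KO1 and 168, 183 and 315 CPM in KO2. Every KO2 library held more Mcm6 than every control library, at a log2 fold change of 1.07 ± 0.56 (adjusted p = 0.14). Cdc45, the partner of the ring, was at 25.8, 31.5 and 18.6 CPM in the control, 24.7, 31.7 and 7.42 CPM in KO1 and 42.4, 45.4 and 67.8 CPM in KO2. It too was higher in all KO2 libraries, with an adjusted p of 0.079.

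Of the 9 genes of nucleotide supply and the fork, Pcna fell in KO1, and Tyms, Pola1 and Rfc3 rose in KO2. Pcna was at 283, 309 and 243 CPM in the control, 132, 171 and 78.3 CPM in KO1 and 247, 267 and 399 CPM in KO2. The KO1 libraries were all below the rest, with a log2 fold change of −1.13 ± 0.28 (edgeR adjusted p = 0.0065). Pola1, the catalytic subunit of the polymerase that starts each new strand (chrX:93304767-93632155, minus strand), was at 30.1, 24.5 and 24.5 CPM in the control, 30.5, 35.8 and 10.2 CPM in KO1 and 85.0, 79.0 and 103 CPM in KO2. Its 3 KO2 libraries were far above the 6 others, and the log2 fold change was 1.75 ± 0.38 (adjusted p = 0.0035), the largest rise of the 50 genes in KO2.

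Tyms, thymidylate synthase, was at 28.8, 44.9 and 21.8 CPM in the control, 60.2, 69.7 and 22.0 CPM in KO1 and 65.0, 76.7 and 128 CPM in KO2. Every KO2 library exceeded the control and so did 2 of the 3 KO1 libraries, and the log2 fold change in KO2 was 1.50 ± 0.44 (edgeR adjusted p = 0.017). Rfc3 was at 24.0, 23.1 and 18.6 CPM in the control, 33.0, 40.1 and 19.3 CPM in KO1 and 39.5, 40.3 and 69.7 CPM in KO2. It rose in KO2 by 1.19 ± 0.30 on the log2 scale (adjusted p = 0.0078). Rrm2, the small subunit of ribonucleotide reductase, was at 124, 174 and 98.4 CPM in the control, 121, 179 and 21.3 CPM in KO1 and 112, 128 and 282 CPM in KO2. Its groups overlapped, and it passed no test.

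The 5 regulators of entry into S phase did not move as a block. E2f2, an activating E2F factor (chr4:136172394-136196057, plus strand), was at 9.88, 15.7 and 8.15 CPM in the control, 3.05, 2.94 and 0.702 CPM in KO1 and 3.72, 3.01 and 6.79 CPM in KO2. All 6 clone libraries were below all 3 control libraries, which was true of no other gene of the 50 and of 23.0% of all tested genes. Its log2 fold change was −1.74 ± 0.52 with the clones together (edgeR adjusted p = 0.023), −2.33 ± 0.54 in KO1 (adjusted p = 0.0044) and −1.32 ± 0.52 in KO2 (adjusted p = 0.058). The call with the clones together was lost without the first control library (adjusted p = 0.052) or the second (adjusted p = 0.10).

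E2f1, its relative, was at 43.8, 35.9 and 35.5 CPM in the control, 34.0, 43.2 and 25.3 CPM in KO1 and 68.9, 73.9 and 93.8 CPM in KO2. It rose in KO2 by 1.04 ± 0.20 on the log2 scale (edgeR adjusted p = 0.0019), where its libraries were all above the 6 others. E2f8, a repressing E2F factor, was at 20.2, 27.7 and 14.8 CPM in the control, 12.1, 16.8 and 1.98 CPM in KO1 and 33.7, 35.7 and 66.8 CPM in KO2. Its KO2 libraries were also above all others, but its difference from the control did not pass (1.12 ± 0.61, adjusted p = 0.15).

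**Figure D4:**
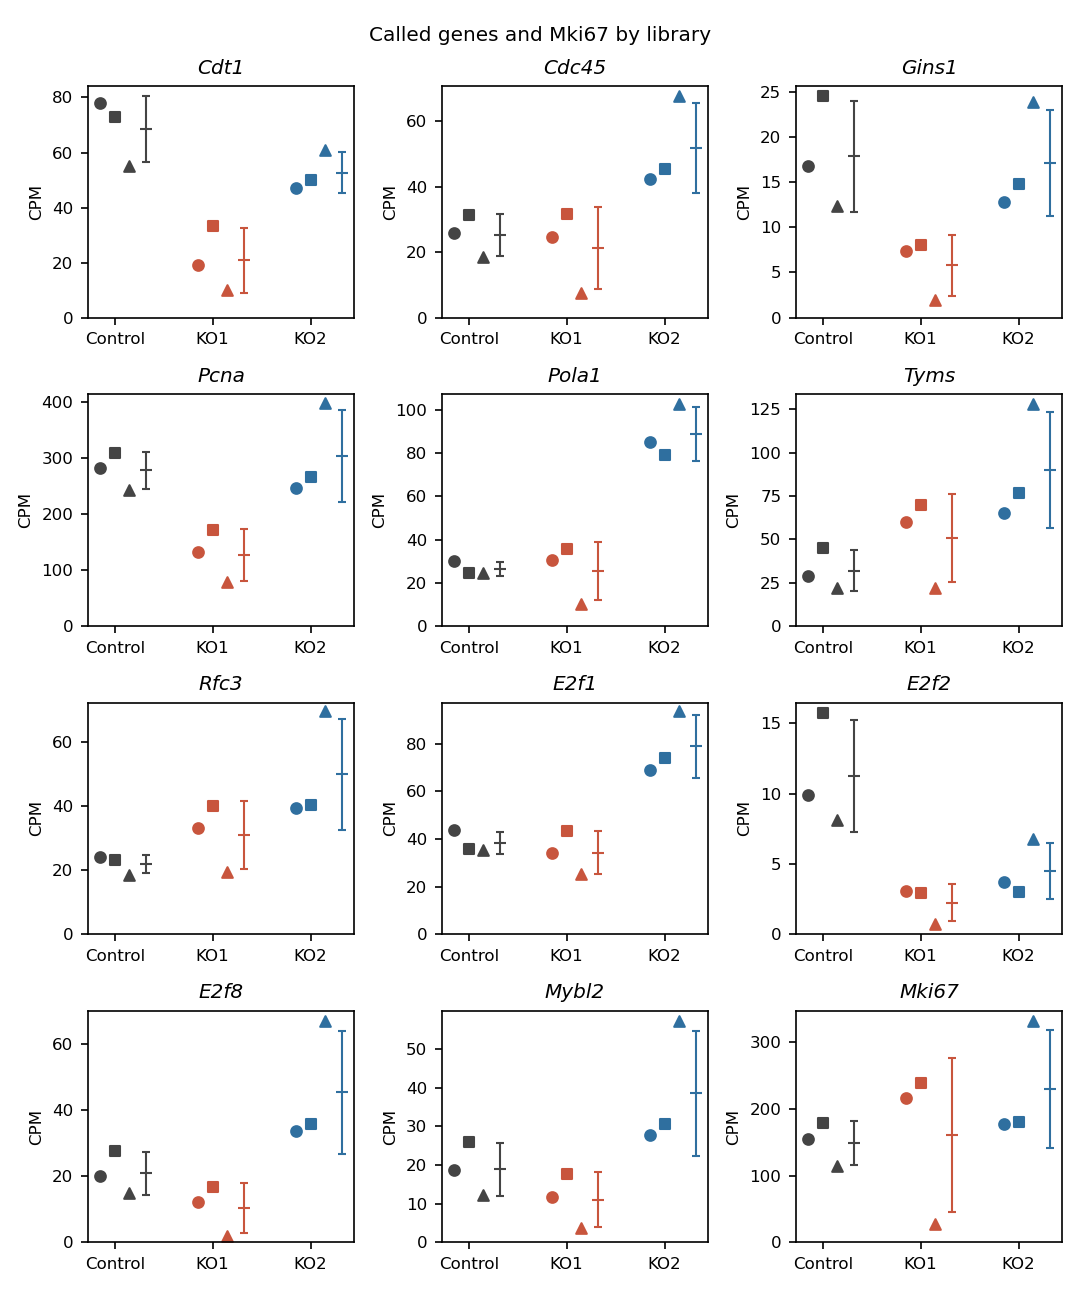
CPM of the 11 genes that passed a test in any comparison and of Mki67 in each library, with circles, squares and triangles for libraries 1, 2 and 3 of a group and a bar for the mean ± SD. E2f2 is lower in all 6 clone libraries, Cdt1, Gins1 and Pcna are lower in KO1, and Pola1 and E2f1 are higher in KO2, while Mki67 overlaps between groups.

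None of the 24 mitosis genes passed the test in either clone or with the clones together. Leaving out the third KO1 library gave 3 higher in KO1, 10 in KO2 and 6 with the clones together. Of all genes, 28.1%, 27.4% and 22.4% were then higher. Of the 7 genes of mitotic entry, Cdk1, the kinase that starts mitosis, was at 66.7, 118 and 48.6 CPM in the control, 84.2, 100.4 and 19.0 CPM in KO1 and 125, 139 and 251 CPM in KO2. Its partner Ccnb1 was at 43.2, 98.6 and 31.6 CPM in the control, 59.9, 68.8 and 8.44 CPM in KO1 and 79.6, 86.5 and 131 CPM in KO2. Aurka, the centrosome kinase, was at 37.3, 84.3 and 28.7 CPM in the control, 40.8, 45.4 and 5.81 CPM in KO1 and 57.2, 67.9 and 125 CPM in KO2. The second control library reached the level of the lower KO2 libraries for Ccnb1 and Aurka but not for Cdk1, whose KO2 libraries were all higher (log2 fold change 1.14 ± 0.56, edgeR adjusted p = 0.12).

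Among the 7 genes of the checkpoint and anaphase, Bub1 and Bub1b showed the same pattern without the low library. Bub1, a checkpoint kinase, was at 18.6, 23.0 and 16.1 CPM in the control, 32.7, 38.1 and 4.0 CPM in KO1 and 47.4, 45.4 and 75.3 CPM in KO2. Bub1b, which restrains Cdc20, was at 37.5, 64.0 and 29.1 CPM in the control, 85.6, 85.3 and 12.5 CPM in KO1 and 69.6, 75.5 and 126 CPM in KO2. For both genes 5 of the 6 clone libraries were above all control libraries, and the third KO1 library was below them. Birc5, survivin, was at 55.1, 109 and 39.1 CPM in the control, 57.7, 65.2 and 8.85 CPM in KO1 and 63.8, 72.4 and 123 CPM in KO2, with overlap in all groups.

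The 8 genes of the spindle and chromosomes include enzymes and motors that shape and move chromosomes. Top2a, the enzyme that untangles DNA, was at 286, 360.1 and 189 CPM in the control, 246, 299.8 and 32.7 CPM in KO1 and 352, 351 and 510.1 CPM in KO2. Tpx2, which activates Aurka on the spindle, was at 99.5, 176 and 67.0 CPM in the control, 120.1, 132 and 15.5 CPM in KO1 and 158, 172 and 233 CPM in KO2. Each clone overlapped with the control for both, and the KO1 libraries were below the KO2 libraries. Mki67 was at 154, 179 and 114 CPM in the control and 177, 179.5 and 332 CPM in KO2, beside the KO1 values given above.

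Of the 2 transcription factors of mitotic genes, Foxm1 was at 64.2, 78.3 and 42.4 CPM in the control, 75.3, 99.7 and 17.7 CPM in KO1 and 67.4, 68.5 and 109 CPM in KO2. Mybl2 was at 18.6, 25.9 and 12.2 CPM in the control, 11.6, 17.7 and 3.61 CPM in KO1 and 27.8, 30.6 and 57.2 CPM in KO2. Foxm1 overlapped in all groups, whereas Mybl2 was higher in every KO2 library than in any other.

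Genes were also counted whose libraries did not overlap between groups. In KO1, Cdt1, Gins1, Pcna, E2f2 and Kif23 were lower in every library than in every control library, which is 5 of 50 against 33.1% of all genes. In KO2, 20 of the 50 genes were higher in every library, against 30.7% of all genes. Among the 20 were 11 replication and 9 mitosis genes, from Mcm3 and Mcm6 to Cenpe, Cenpf and Mybl2.

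The third comparison was between the clones. All 50 genes had a lower fitted level in KO1 than in KO2, and 8 of them passed the test as lower, 0 as higher, where 18.5% of all genes were lower and 20.2% higher. At an unadjusted p under 0.05, 14 were lower and 0 higher. The median was −0.86 for the 50 genes and 0.04 for all genes. Of the 8, 7 belonged to replication and 1, Mybl2, to mitosis. Without the third KO1 library, 44 of the 50 genes had a lower fitted level in KO1 and 6 a higher one. The median log2 CPM of the 50 genes was 5.72, 5.89 and 3.26 in the KO1 libraries and 5.85, 6.02 and 6.72 in the KO2 libraries. The first and second libraries of the clones were thus close in this median, but not in both parts. Their medians of replication genes were 5.11 and 5.46 in KO1 and 5.85 and 6.02 in KO2. Those of mitosis genes were 5.79 and 5.96 in KO1 and 5.85 and 6.03 in KO2. The third libraries of both clones were not left out together.

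The largest differences between the clones were in E2f8 (−2.14 ± 0.63 on the log2 scale, edgeR adjusted p = 0.025), Mybl2 (−1.81 ± 0.53, adjusted p = 0.024) and Pola1 (−1.80 ± 0.38, adjusted p = 0.0050). Gins1 differed by −1.57 ± 0.49 (adjusted p = 0.031), Cdt1 by −1.34 ± 0.36 (adjusted p = 0.016), Pcna by −1.26 ± 0.28 (adjusted p = 0.0070) and E2f1 by −1.21 ± 0.20 (adjusted p = 0.0017). The calls of E2f8 and Mybl2 were lost without the first KO1 library (adjusted p = 0.052 and 0.057) or the third KO2 library (0.077 and 0.081). Cdc45 was close to the threshold (−1.28 ± 0.45, adjusted p = 0.047). Without the third KO1 library, the same 8 genes and Mcm6 were lower in KO1, with log2 fold changes of −1.65 to −0.83, and 0 were higher, where 16.2% and 16.5% of all genes were. The median of the 50 was then −0.44. The 9 of 50 genes are near the background. With the third KO1 library kept and the third KO2 library left out, the median was −0.54 and Cdt1, Pcna, Pola1 and E2f1 were lower.

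A fit that took the level of the cell cycle in each library into account was added after these values had been seen. The level was the median log2 CPM of the 117 other replication and mitosis genes, which was 4.67, 5.06 and 4.21 in the control, 4.85, 5.01 and 2.76 in KO1 and 4.93, 4.97 and 5.74 in KO2. With this level as a covariate, each gene was given its own slope on the level, and a fold change is the difference at an equal level. A gene that follows the level little is adjusted little. When it is kept, the third KO1 library, with the lowest level, weighs most in these slopes. The medians of the 50 genes were then −0.10 in KO1 and 0.05 in KO2 against the control, and 0.01 with the clones together. Between the clones the median was −0.09, or −0.08 without the third KO1 library, against −0.86 without the covariate. The 117 genes belong to the same machinery as the 50. Medians near 0 therefore largely follow from the way this fit is built and are not a separate result. In KO1, 11 genes were higher and 17 lower, where 32.3% and 32.7% of all genes were. In KO2, 14 genes were higher and 11 lower, where 28.4% and 29.3% of all genes were. The shares of the 50 genes were thus near or below the background. Without the third KO1 library the counts were 13 and 14 in KO1 (30.2% and 30.8% of all genes) and 14 and 8 in KO2 (26.4% and 27.1%).

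Single genes differed from the control at an equal level in this fit. E2f2 was lower by −2.11 ± 0.18 on the log2 scale in KO1 (edgeR adjusted p = 7.6e-06) and −1.92 ± 0.18 in KO2 (adjusted p = 1.9e-05). Cdt1 was at −1.58 ± 0.18 in KO1 and −0.73 ± 0.18 in KO2, and Gins1 at −1.41 ± 0.12 and −0.59 ± 0.12, all 4 called. The motor protein gene Kif23, which acts in the last step of division, was at −1.0 ± 0.14 and −1.01 ± 0.14. Its relative Kif20a went the other way, at 1.30 ± 0.15 in KO1 and 0.66 ± 0.15 in KO2, as did Tyms at 0.92 ± 0.13 and 1.04 ± 0.14. Plk1 was at 0.94 ± 0.15 and 0.64 ± 0.15, and the checkpoint kinase gene Ttk at 0.58 ± 0.13 and 0.54 ± 0.13, all called. Pola1 was at 0.04 ± 0.16 in KO1, which was not called, and at 1.35 ± 0.17 in KO2, which was. E2f8 was lower in KO1 (−0.88 ± 0.11) and higher in KO2 (0.37 ± 0.12), and Mybl2 likewise (−0.55 ± 0.15 and 0.45 ± 0.15), all called. Without the third KO1 library the call of Mybl2 in KO2 was lost (adjusted p = 0.12), and the other calls named here were kept. Mki67 was at 0.18 ± 0.13 and −0.17 ± 0.14 and was not called in either clone, but without the third KO1 library it was called higher in KO1 (0.36, adjusted p = 0.016).

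**Figure D5:**
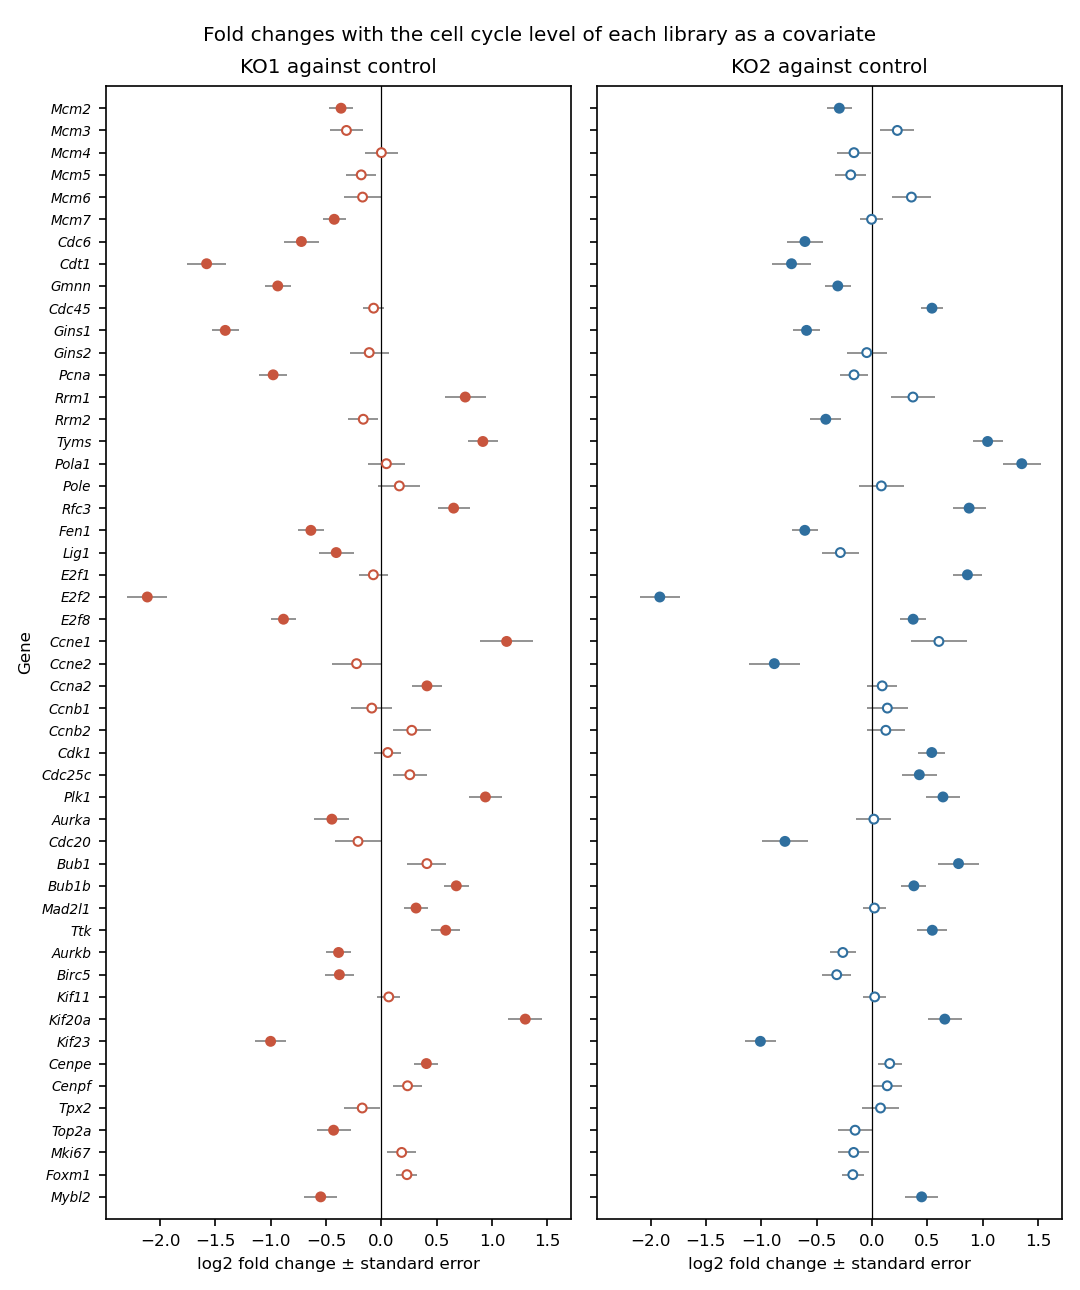
Log2 fold changes of the 50 genes in KO1 and KO2 against the same 3 control libraries, fitted with the cell cycle level of each library as a covariate, with bars for the standard error and filled points for an adjusted p under 0.05. The standard errors are smaller than without the covariate, E2f2 is far left in both panels and E2f8 and Mybl2 lie on opposite sides of 0.

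The other genes of DNA replication and mitosis were counted in the same way. Of 50 other replication genes, 0 rose and 3 fell with the clones together, and of 67 other mitosis genes 1 rose and 0 fell. These counts were below the background of 21.7% higher and 21.2% lower. The 3 were Rnaseh2a, a subunit of an enzyme that removes RNA from DNA (−1.11 ± 0.19 on the log2 scale, edgeR adjusted p = 0.0013), the origin recognition gene Orc3 and the polymerase subunit gene Pole3, and the 1 was the kinetochore gene Nuf2 (2.12 ± 0.71, adjusted p = 0.036). The count of 1 became 0 when any library but the third KO1 library was left out. It became 22 without the third KO1 library, where 22.4% of all genes rose. In KO1 against the control, 0 and 9 other replication genes were higher and lower, and in KO2 5 and 2. For other mitosis genes the counts were 0 and 1 in KO1 and 6 and 0 in KO2. Of all genes, 29.9% and 30.0% were higher and lower in KO1, and 25.3% and 26.1% in KO2. The counts of both lists were thus below the background. When the third KO1 library was left out, 17 other mitosis genes were higher and 1 lower in KO1, where 28.1% and 28.7% of all genes were, and 33 and 0 in KO2, where 27.4% and 28.1% were. Of the 50 other replication genes, 7 were then higher and 7 lower in KO1, and 11 and 4 in KO2, all below the same shares.

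Genes that hold the cycle back were examined beside them, 20 in all, of which 19 were tested. With the clones together 2 rose and 4 fell, where 21.7% and 21.2% of all genes did, so the counts were at or below the background. Cdkn1a was at 373, 392 and 361 CPM in the control, 116, 121 and 79.9 CPM in KO1 and 166, 167 and 188 CPM in KO2, with no overlap. It fell in both clones together by 1.43 on the log2 scale (edgeR adjusted p = 0.0011), including in the library where the cycle genes were lowest. Gas1, a growth arrest gene, rose by 3.54 ± 0.21 (adjusted p = 2.7e-06), and the inhibitor gene Cdkn2c also rose (0.86 ± 0.18, adjusted p = 0.0043), whereas E2f4, a repressing factor, fell (−0.67 ± 0.16, adjusted p = 0.0076). Cdkn1b did not pass in either clone against the control. Cdkn1c was at 1.48 to 2.99 CPM in the control, 1.04 to 2.42 CPM in KO1 and at most 0.0887 CPM in KO2, where it fell (adjusted p = 5.4e-05). Rbl2, the pocket protein p130 of the DREAM complex, rose in KO1 (0.60 ± 0.21, adjusted p = 0.030), a call that was lost without the third KO1 library (adjusted p = 0.084).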

How the data were processed

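RNA was sequenced from 3 control, 3 KO1 and 3 KO2 libraries of mouse cholangiocarcinoma cells (stranded mRNA libraries, paired-end reads). The authors estimated counts with kallisto 0.46.1 in stranded mode on GENCODE vM24 transcripts (mm10) and deposited these estimated counts per gene symbol. The estimated counts were rounded to whole numbers when they were read, and fractional values were not counted before that. Reads that fit several transcripts are shared by the estimate, so levels of closely related genes are less certain. Groups were taken from sample titles, and replicate numbers are only names. The libraries of a group differed beyond counting noise, with a chi-square of at least 40.1 per degree of freedom in each pair.

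Counts were tested with edgeR 4.0.16 in R 4.3.3. The filter filterByExpr, TMM normalization and the quasi-likelihood test were used. P-values were adjusted by Benjamini and Hochberg over all 17672 genes, with a threshold of 0.05. KO against control was fitted with 2 groups, and the clones with 3 groups. The standard error is the log2 fold change divided by the square root of F. Log2 CPM used a prior count of 2. Intervals of counting were not computed, and depth limits only low genes, since the smallest count of the 50 genes was 43. The code was tested on simulated data. Alternatives were limma-voom (limma 3.58.1), DESeq2 1.42.0, other normalizations and filters, and each library left out. The fit with the cell cycle level was added after seeing the data.

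The genes, roles and other lists were chosen with earlier results of these data known. Values in every library are given for Mki67, for the 2 genes of each role with the highest CPM (not scaled by length), for the gene of each role with the largest fold change between the clones, and for the genes that passed a test. The last of these was added to the rule after the values were seen. Promoters came from RefSeq (GRCm38.p6), with no window for Aurkb, Ccna2, Ccne2, Cdc25c, Foxm1, Gins1, Gins2, Gmnn, Kif20a, Mcm4, Pole and Tpx2. The first 25 transcribed bases were found in a transcript of the same gene for 27 of 43 windows. The floxed alleles of the mice and 1 biliary marker are not reported here.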

Additional observations from a re-analysis of the deposited data

Results flagged for a closer look

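The third KO1 library was far from the other 5 clone libraries for several genes. Dixon's ratio, the gap from the lowest library to the next divided by the range over the 6 clone libraries on the log2 CPM scale, was compared with its 95% critical value for 6 samples in 26 results, and 12 exceeded it, all with this library lowest. Chance alone passes about 1 in 20. The ratio was 0.723 for the median of the mitosis genes. Among replication genes it was 0.642 for Rrm2 and 0.628 for E2f2. Among mitosis genes it was 0.714 for Ccnb1, 0.634 for Aurka, 0.715 for Bub1, 0.743 for Bub1b, 0.712 for Birc5, 0.755 for Tpx2, 0.734 for Top2a, 0.748 for Mki67 and 0.737 for Foxm1. These results rest on the same library and are not independent of each other.

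For 8 genes the change from the control differed between the clones by the test of KO1 against KO2 (edgeR quasi-likelihood test, adjusted p under 0.05). The difference on the log2 scale, KO1 minus KO2, was -1.34 for Cdt1, -1.28 for Cdc45, -1.57 for Gins1, -1.26 for Pcna, -1.80 for Pola1, -1.21 for E2f1, -2.14 for E2f8 and -1.81 for Mybl2.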

How the results depend on the processing

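Alternatives were run for E2f2 and Mki67 with the clones together, for the genes of the 50 called in a clone and for the 8 called between the clones, and these kept their direction in all of them. Other named genes were recomputed only without the third KO1 library or with the covariate, if at all, and Mki67 in KO2 was below 0 with the covariate. For both clones against the control, the 0 higher and 1 lower of 50 genes became 9 and 2 with library weights in limma-voom, 3 higher with DESeq2, 4 and 2 with the average of the clones' contrasts, and 0 lower when tested against a 2-fold change. With the cell cycle level as a covariate they became 9 and 10, and 8 and 6 without the third KO1 library. Leaving out 1 library gave 0 to 12 higher (12 without the third KO1 library) and 0 to 1 lower (0 without the first or second control library), with a median of 0.05 to 0.60, lowest without the third KO2 library. The median was 0.071 with limma-voom and 0.01 with the covariate.

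For KO1, the 0 higher became 1 without a filter, 8 with library weights, 1 with DESeq2, and 11 or 13 with the covariate. The 4 lower became 2 against a 2-fold change and 17 or 14 with the covariate. Leaving out 1 library gave 0 to 7 higher and 3 to 5 lower, with a median of -0.69 to 0.16. For KO2, the 4 higher became 7 without a filter, 16 with weights, 7 with DESeq2, 1 against a 2-fold change, 20 on 6 libraries and 14 with the covariate in both forms. The 0 lower became 1 without a filter, 1 with limma-voom, 2 with weights, 1 with DESeq2, 1 on 6 libraries, and 11 or 8 with the covariate. Leaving out 1 library gave 3 to 21 higher and 0 to 1 lower, with a median of 0.41 to 0.97, which the covariate moved to 0.051, or to 0.074 without the third KO1 library.

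For KO1 against KO2, the 0 higher became 2 or 4 with the covariate. The 8 lower became 13 without a filter, 13 with DESeq2, 0 against a 2-fold change, and 14 with the covariate without the third KO1 library. Leaving out 1 library gave 4 to 12 lower (5 without the first KO1 library, 4 without the third KO2 library), with a median of -1.29 to -0.44. The cause of these shifts was not tested. Tests against a 2-fold change ask for more than a difference from 0.

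Single calls were lost for Gins1 in KO1 without the second control library (adjusted p = 0.055), and for Tyms in KO2 without control library 1 or 3 or KO2 library 3 (adjusted p = 0.061, 0.064 and 0.069). Cdc45 between the clones was lost in 11 of 20 alternatives. E2f8 and Mybl2 between the clones were lost without the first KO1 library (adjusted p = 0.052 and 0.057) or the third KO2 library (0.077 and 0.081), and Gins1 without KO2 library 2 or 3 (0.058 and 0.098). Mki67 in both clones was not called under any alternative, with adjusted p from 0.065 to 1.0. No paired analysis was possible because the labels give no replicate numbers that groups share.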
